A study of Mus musculus with 1615 samples.

Results

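The genes followed across the cells of the mouse colon were Ano1, Kit, Etv1, Kcnma1, Kcnmb1, Kcnmb4 and Kcnn3, 7 in all. They were chosen by symbol, and 7 of the 46517 Ensembl gene identifiers of the count table carried these symbols. The rule itself used no measured value. The cells came from 11 mice of 5 fluorescent reporter lines, were sorted one by one into 384-well plates and were sequenced by Smart-Seq2, a full-length method without molecular identifiers. The table held 1615 cells on 13 plates. The ACTA2GFP line gave 5 and 8 cells from 2 mice, and its reporter marks cells in which the smooth muscle actin promoter is active. The ACTA2GFP:CSPG4dsRED line, which carries in addition a red reporter under the NG2 proteoglycan promoter, gave 22.2, 14.98 and 31.3% of all cells from mice 20GG79:1, 20GG79:6 and 20GG95:3. The CSPG4dsRED line gave 7.24% of all cells from 1 mouse. The PDGFRaH2bGFP line gave 28 and 63 cells from 2 mice, and the PDGFRbGFP line gave 12.3, 0.557 and 4.95% of all cells from 3 mice. The labels name no treatment. The labels give ages of 8 to 30 weeks, colon as the tissue, 2 female and 9 male mice, and no statement of which reporter gate each plate was sorted with. The text of the series speaks of males only, and the dissociation protocol names the heart, so the labels conflict on both points.

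Ano1 encodes a calcium-activated chloride channel of smooth muscle and of the interstitial cells of Cajal, the pacemaker cells of the gut, in which it carries the pacemaker current. Kit is the receptor tyrosine kinase by which Cajal cells are usually recognised, and it is also carried by mast cells. Etv1 is an ETS-family transcription factor that acts downstream of Kit in Cajal cells. Kcnma1 encodes the pore of the large-conductance calcium-activated potassium channel, called BK, and Kcnmb1 and Kcnmb4 encode β subunits that set how this channel responds to calcium. Kcnn3 encodes SK3, a small-conductance calcium-activated potassium channel known from endothelium and from the PDGFRα-positive interstitial cells of the gut. In smooth muscle, opening of Ano1 depolarises the membrane, whereas opening of BK or SK channels hyperpolarises it.

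The start-site sequences of Ano1, Kcnmb1 and Kcnn3 are shown because Ano1 and Kcnmb1 had their highest levels among muscle and pericyte-like cells, though in different parts of them, and Kcnn3 had its highest level elsewhere. All 7 genes matched an entry of the RefSeq promoter table of GRCm38.p6, with 9 windows among them. The Ano1 stretch is chr7:144738593-144738823 on the minus strand, inside the annotated gene (chr7:144588549-144751974), of which another annotated transcript starts further upstream, and it leaves out the 19 bases nearest the start, which the annotation gives as transcribed. The Kcnmb1 stretch is chr11:33962763-33963012 on the plus strand, directly before the gene (chr11:33963013-33973641) and within Kcnip1, which runs on the opposite strand. The Kcnn3 stretch is chr3:89519914-89520163 on the plus strand, directly before the gene (chr3:89520164-89675132). Each is written 5′ to 3′, with CG dinucleotides in capitals, a feature counted after the expression values had been seen.
Ano1: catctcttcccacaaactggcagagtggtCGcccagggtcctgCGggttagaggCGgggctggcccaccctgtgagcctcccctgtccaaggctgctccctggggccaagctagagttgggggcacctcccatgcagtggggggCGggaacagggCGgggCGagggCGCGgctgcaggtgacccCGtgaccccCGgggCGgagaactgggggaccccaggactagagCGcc
Kcnmb1: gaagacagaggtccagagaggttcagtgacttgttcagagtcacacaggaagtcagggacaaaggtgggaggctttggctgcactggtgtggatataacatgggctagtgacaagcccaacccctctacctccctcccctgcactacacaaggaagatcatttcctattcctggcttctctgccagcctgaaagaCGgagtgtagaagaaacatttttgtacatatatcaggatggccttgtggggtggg
Kcnn3: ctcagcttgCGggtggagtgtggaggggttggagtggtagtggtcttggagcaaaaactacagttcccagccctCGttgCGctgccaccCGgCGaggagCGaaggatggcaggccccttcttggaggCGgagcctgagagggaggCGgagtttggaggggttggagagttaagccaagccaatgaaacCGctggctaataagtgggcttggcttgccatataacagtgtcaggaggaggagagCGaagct
The 250 bases before the start held 1 CG dinucleotide in Kcnmb1, 16 in Ano1, 10 in Kcnn3, 31 in Kcnma1 and 43 in Kcnmb4, against a median of 6 over the 32851 windows of the table. None of the 9 windows of 300 bases, 250 before and 50 after the start, held the serum response factor motif, called the CArG box, which 1.63% of all windows held, or the ETS-family run CCGGAAGT, which 3.89% held. Both strands were searched. The absence of these letters from the windows says nothing of where the factors act.

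A cell had between 45388 and 1046988 gene counts (median 194180), and levels are given on the per-million scale (CPM) of gene counts, spike-in RNAs left out. Cells were clustered on 2000 variable genes and 84 class markers, from which the 7 genes and all other listed genes had been left out, and clusters were named from the markers. Of the 1615 cells, 32.6% were visceral smooth muscle-like, 6.01% vascular smooth muscle-like (97 cells), 9.35% pericyte-like, 13.6% fibroblast-like (220), 22.1% blood endothelium-like, 4.89% lymphatic endothelium-like (79), 3.53% epithelium-like (57), 2.60% glia-like (42) and 1.92% immune-like (31), and 54 cells of mouse 20GG95:3 stayed unnamed. No cluster took the name of Cajal cells, mast cells, neurons or mesothelium. All visceral, vascular and pericyte-like values come from the 3 mice of the ACTA2GFP:CSPG4dsRED line, in the order 20GG79:1, 20GG79:6 and 20GG95:3 wherever values are listed, and the vascular class had 5 cells of the first, 92 of the last and no group of at least 5 cells from the other. In 18.5% of all cells at least 2 markers of another class were present, among them 39 of the 97 vascular smooth muscle-like cells, and no doublet caller was run. A mouse is the replicate, and its cells of 1 class were summed where there were at least 5. Most comparisons therefore rest on 2 or 3 mice.

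Among whole classes, Ano1 was highest in pericyte-like and vascular smooth muscle-like cells and lower and more variable in visceral smooth muscle-like cells. A group of cells within the visceral class, described below, stood higher still. In pericyte-like cells the 3 mice had 1125, 657.5 and 864.99 CPM, a mean of 882.4 ± 234.1 (SD, n = 3). In vascular smooth muscle-like cells mice 20GG79:1 and 20GG95:3 had 675.8 and 829.2 CPM, a mean of 752.5 ± 108.5 (SD, n = 2). In visceral smooth muscle-like cells the 3 mice had 102.7, 259.3 and 415.7 CPM, a mean of 259.2 ± 156.5 (SD, n = 3). The highest visceral value lay below the lowest value of both other classes. In mouse 20GG95:3 the cells lay on 2 plates, with 1298 and 442.7 CPM in pericyte-like, 880.1 and 764.2 in vascular and 518.1 and 308.6 in visceral smooth muscle-like cells, so that on the second plate the pericyte-like level was below the vascular one. Epithelium-like cells followed with 54.1 ± 50.99 CPM (SD, n = 4), glia-like cells with 31.2 ± 36.2 (SD, n = 2) and fibroblast-like cells with 19.8 ± 14.1 (SD, n = 4), and these 3 classes did not differ beyond their spread. Blood endothelium-like cells stood at 2.32 ± 2.10 CPM (SD, n = 6), immune-like cells at 3.18 CPM and lymphatic endothelium-like cells at 0.657 CPM. The share of cells with at least 50 CPM, used below as the mark of an expressing cell, was 74.2% of vascular smooth muscle-like cells (exact 95% interval 64.3 to 82.6%), 66.2% of pericyte-like cells (58.1 to 73.7%) and 21.1% of visceral smooth muscle-like cells. These intervals, and all others given for shares, cover counting error only. With each cell thinned to 50000 gene counts, which left out 1 pericyte-like cell of these classes, any Ano1 count was found in 86% of pericyte-like (94.04% before thinning), 82.5% of vascular (93.8%), 41.7% of visceral (68.3%) and 5.06% of lymphatic endothelium-like cells (12.7%), the last being the class with the lowest mean Ano1.

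**Figure D1:**
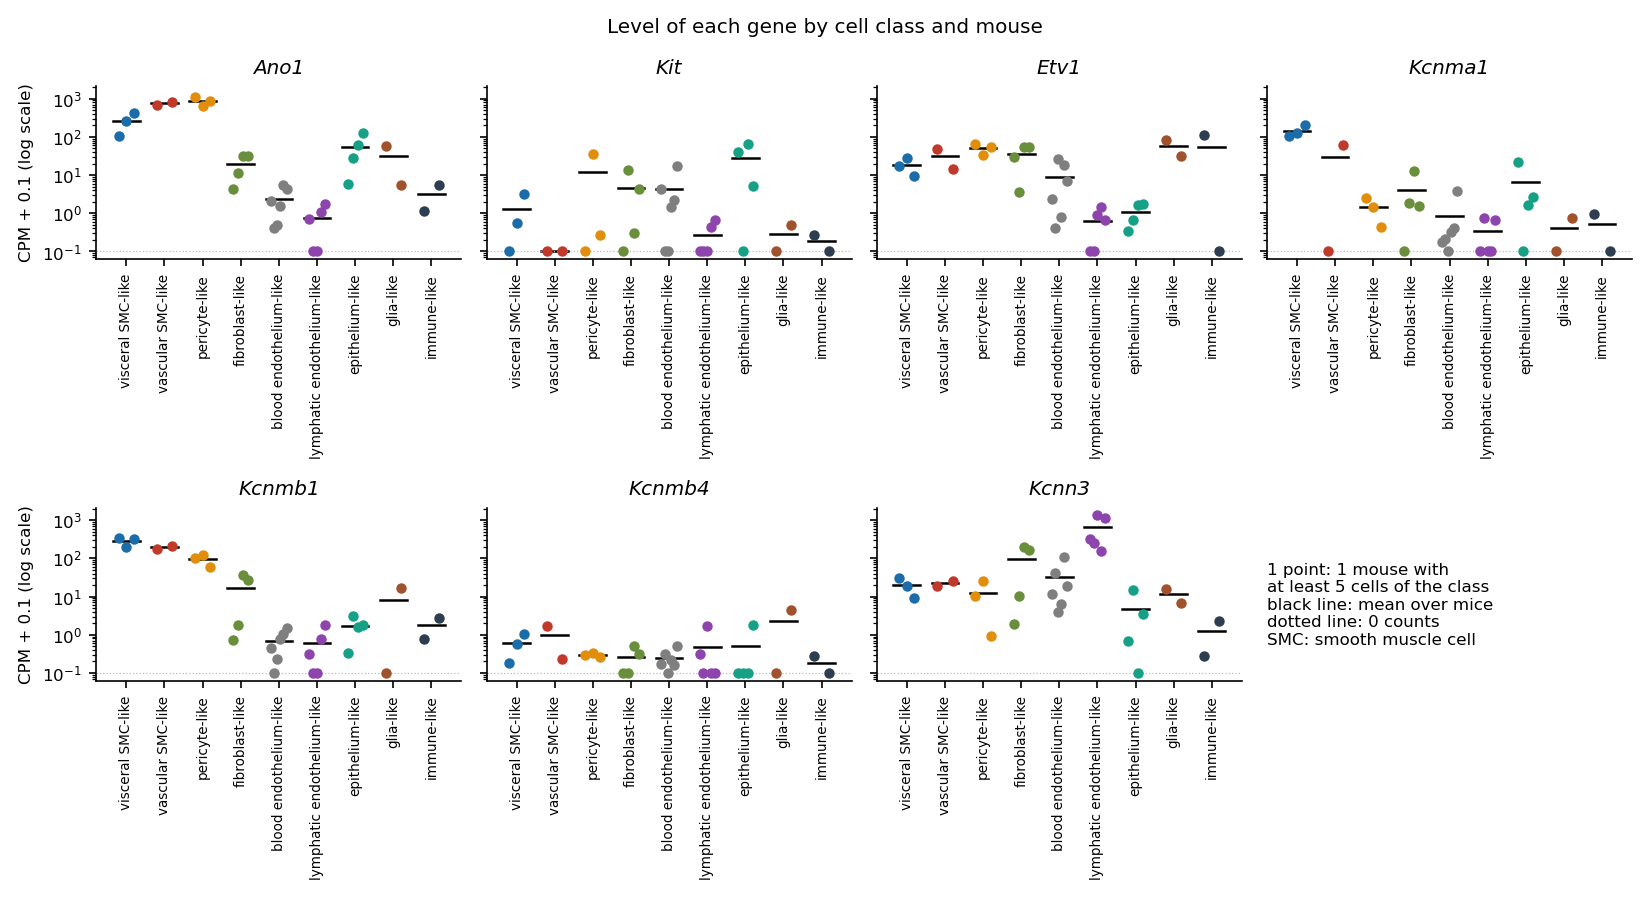
Level of each of the 7 genes by class, in CPM plus 0.1 on a log axis, with 1 point for each mouse that gave at least 5 cells of the class, a black line at the mean and a dotted line where 0 counts fall. Among whole classes, Ano1 was highest in pericyte-like and vascular smooth muscle-like cells, Kcnma1 in visceral smooth muscle-like cells and Kcnn3 in lymphatic endothelium-like cells.

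Within mice, Ano1 was lower in visceral than in vascular smooth muscle-like cells, at 102.7 against 675.8 CPM in mouse 20GG79:1 and 415.7 against 829.2 in mouse 20GG95:3 (log2 fold change -1.93, SE 0.40, edgeR quasi-likelihood test with Benjamini-Hochberg adjustment, adjusted p = 7.87e-05, lower in 2 of 2 mice). The call was lost with DESeq2 (adjusted p = 0.333), without the mouse block (0.396), with a spread shared over all classes (0.84) and without the larger plate of 20GG95:3 (0.0717). With 2 mice a fit of these 2 classes alone cannot leave 1 out, since no residual degrees of freedom remain, so that what each mouse contributes to the call cannot be told apart from the change of spread. Pericyte-like cells and those of vascular muscle did not differ beyond the error (log2 fold change 0.21, SE 0.36), and the sign of this small difference turned under 3 alternatives. Ano1 stood higher in pericyte-like than in visceral smooth muscle-like cells in 3 of 3 mice, but the difference did not pass (log2 fold change 1.88, SE 0.48, edgeR adjusted p = 0.118). It passed with DESeq2 (adjusted p = 0.0108), without a filter on low counts (0.0475) and without the Des-high cells described next (0.0404, log2 fold change 5.46). Beside the first of these comparisons, the summed pericyte markers were at 4435 to 6230 CPM in vascular and 928.5 to 1677 in visceral smooth muscle-like cells, and the part they have in the result was not tested.

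Most of the visceral Ano1 lay in 1 group of cells. Clustering, which had not used Ano1 or any other listed gene, set apart 7.18% of all cells as visceral smooth muscle-like cells with high desmin (Des), called Des-high here, with 7, 10 and 99 cells from the 3 mice and with Shisa3 and Igfbp2 among their leading genes. Their Ano1 level was 1923, 1607 and 1214 CPM in the 3 mice, a mean of 1582 ± 355.2 (SD, n = 3), while the other visceral cells, 25.4% of all cells, had 8.24, 92.1 and 10.6 CPM, a mean of 36.99 ± 47.7 (SD, n = 3). The groups did not overlap, and the difference passed (log2 fold change 6.55, SE 0.63, edgeR adjusted p = 3.02e-05, higher in 3 of 3 mice). By mouse, every Des-high value also lay above all pericyte-like and vascular values, of which the highest was 1125 CPM. On 1 plate of 20GG95:3, however, the pericyte-like level given above exceeded the 1214 CPM of its Des-high cells, and Des-high cells were not tested against these classes. Of the Des-high cells 79.3% expressed Ano1, against 4.62% of the other visceral cells. The call was lost without the mouse block (adjusted p = 0.0753), with a spread shared over all classes (0.0919) and, with that shared spread, without mouse 20GG79:1 (1) or 20GG95:3 (0.73). In the fit of these 2 classes alone it held without each mouse in turn, at an edgeR adjusted p of 1.72e-05 or less. With the Des-high cells left out, the difference between visceral and vascular cells was a log2 fold change of -6.35 (edgeR adjusted p = 5.47e-10).

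Some pericyte markers, which were among the clustering genes, moved with this group. The 9 pericyte markers summed to 2803 to 4007 CPM in Des-high cells and to 768.8 to 1106.3 in the other visceral cells. Of the 9, Rgs5, Abcc9 and Kcnj8 were higher in every mouse, Rgs5 for example at 1157 to 2308 against 181.8 to 375.6 CPM. Pdgfrb, at 189.96 to 524.9 against 209.98 to 353.8 CPM, and Cspg4, at 99.9 to 239.1 against 64.3 to 139.2, overlapped between the groups. The other 4 were low in both groups of visceral cells. Cox4i2 was at 0 to 0.44 CPM in Des-high and 1.01 to 9.70 in the other visceral cells, against 294.9 to 409.7 in pericyte-like cells. Ndufa4l2 was at 0 to 1.78 and 1.18 to 4.46, against 632.2 to 800.1, and Higd1b at 0 to 0.60 and 0 to 0.363, against 25.2 to 217.4. Notch3 was at 3.33 to 15.8 and 4.80 to 37.7, against 1836 to 2456. The Ano1 difference was as large when cells holding markers of another class were left out (log2 fold change 6.83, edgeR adjusted p = 2.83e-24). Des-high cells were also shallower, with a median of 138579 gene counts against 203187. Among cells with at least 150000 gene counts the difference was 7.75 on the log2 scale (edgeR adjusted p = 2.02e-11). That fit held mice 20GG79:1 and 20GG95:3 only, since 20GG79:6 had fewer than 5 such Des-high cells. With cells of all depths, the difference without 20GG79:6 was 7.45.

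Kit was low in every class. Epithelium-like cells had the highest mean, 27.6 ± 30.98 CPM (SD, n = 4), with 39.7, 0, 65.8 and 4.99 CPM in the 4 mice. Pericyte-like cells had 0, 36.003 and 0.165 CPM in the 3 mice, and 99.3% of their Kit counts came from 1 cell, without which the mean over the mice was 0.0979 ± 0.0867 CPM (SD, n = 3). Visceral smooth muscle-like cells had 0, 0.441 and 3.11 CPM. The 97 vascular smooth muscle-like cells had 0 Kit counts among 16974662 gene counts, which allows a level of up to 0.177 CPM. Fibroblast-like cells were at 4.35 ± 6.12 CPM (SD, n = 4) and blood endothelium-like cells at 4.18 ± 6.69 (SD, n = 6), so that no order among the low classes exceeded their spread.

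Just 19 of the 1615 cells had at least 50 CPM of Kit: 7 epithelium-like, 5 blood endothelium-like, 3 fibroblast-like, 2 visceral smooth muscle-like, 1 pericyte-like and 1 immune-like. In the epithelium-like class the 15 cells with at least 1000 CPM of the goblet cell mucin Muc2, a threshold chosen after the values had been seen, had 128.1 CPM of Kit and the other 42 had 3.22. None of the 19 cells carried at least 2 of 7 mast cell markers, and 1, an epithelium-like cell, carried both Thbs4 and Prkcq, which are further Cajal cell markers. Ano1 was expressed in 5 of the 19, and 6 had 0 Ano1 counts. Thbs4 stood at 0.353 CPM in visceral, 0.765 in pericyte-like and 5.01 in vascular smooth muscle-like cells, the last from 1 cell, and Prkcq at 1.06, 2.94 and 0.766 CPM in the same order. The combination by which Cajal cells are known, Ano1 with Kit and Etv1 each at 50 CPM or more, occurred in 0 of 1615 cells, which allows a share of up to 0.186%.

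Few Ano1-expressing cells held a Kit count, and few cells of any kind did. Of the cells with at least 50 CPM of Ano1, 20.99% of all 1615, 96.2% (exact 95% interval 93.5 to 97.9%) had not 1 Kit count, against 95.6% of the cells below that Ano1 level. The share was 97.3% (92.3 to 99.4%) in visceral smooth muscle-like cells, in which Ano1-expressing cells made up 6.87% of all 1615 cells, 72 of 72 in vascular smooth muscle-like cells (lower bound 95.01%) and 97 of 100 in pericyte-like cells. By mouse it was 12 of 12, 18 of 21 and 78 of 78 in the visceral class and 43 of 43, 17 of 19 and 37 of 38 in the pericyte-like class. Below that Ano1 level, 97.8% of visceral, 25 of 25 vascular and 51 of 51 pericyte-like cells had no Kit count, so that the 3 pericyte-like cells with a Kit count all expressed Ano1. Summed over the Ano1-expressing visceral cells, Ano1 stood at 1380 CPM and Kit at 0.181 CPM, from 4 counts. The share was lowest in epithelium-like cells, where 6 of 10 Ano1-expressing cells had no Kit count.

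**Figure D2:**
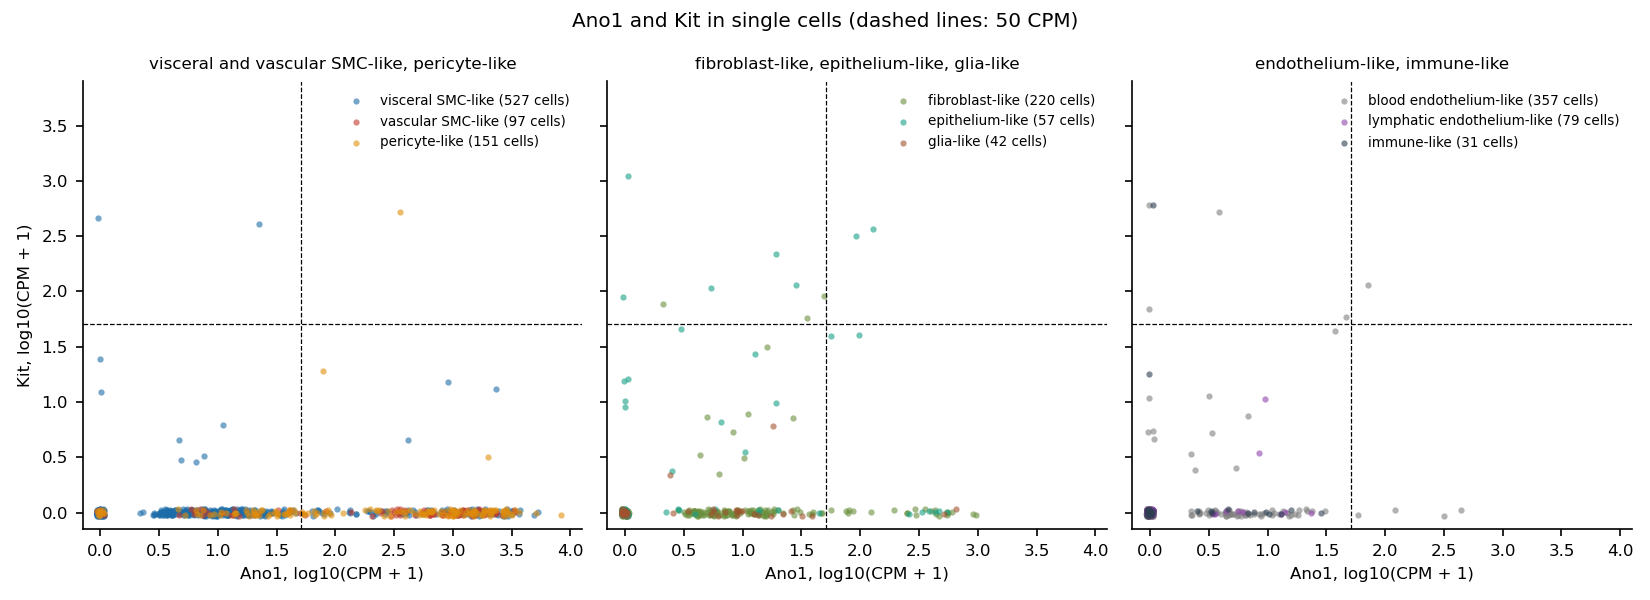
Ano1 against Kit in single cells, each as log10 of CPM plus 1, in 3 panels of classes, with points jittered and dashed lines at 50 CPM. The 54 unnamed cells are not drawn. Over all 1615 cells, 96.2% of those with at least 50 CPM of Ano1 had no Kit count, against 95.6% of the others, and 5 cells lay beyond both lines.

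Etv1 showed neither the pattern of Ano1 nor that of Kit. Its highest means were in glia-like cells, at 82.2 and 30.6 CPM in 2 mice, immune-like cells, at 109.6 and 0 CPM, and pericyte-like cells, at 66.3, 34.2 and 52.9 CPM. Fibroblast-like cells had 35.5 ± 24.2 CPM (SD, n = 4), vascular smooth muscle-like cells 31.8 ± 24.2 (SD, n = 2) and visceral smooth muscle-like cells 18.3 ± 9.68 (SD, n = 3). The ranges of neighbouring classes overlapped. Etv1 passed in no comparison, the difference between pericyte-like and visceral smooth muscle-like cells being 1.55 on the log2 scale (SE 0.78, edgeR adjusted p = 0.475). Of all Ano1-expressing cells, 32 (9.44%) expressed Etv1.

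Kcnma1, the BK pore, was highest in visceral smooth muscle-like cells, with 104.999, 124.1 and 198.9 CPM in the 3 mice and a mean of 142.7 ± 49.6 (SD, n = 3). Vascular smooth muscle-like cells had 0 CPM in the 5 cells of mouse 20GG79:1, where 3 counts would have been 2.40 CPM, and 60.3 CPM in the 92 cells of 20GG95:3. Pericyte-like cells had 2.39, 1.32 and 0.33 CPM, a mean of 1.35 ± 1.03 (SD, n = 3). No visceral value overlapped those of the other 2 classes. Expressing cells made up 31.7% of the visceral, 16.5% of the vascular and 0 of the pericyte-like cells, which allows up to 1.99%. Kcnma1 was higher in visceral than in vascular smooth muscle-like cells (log2 fold change 3.94, SE 1.12, edgeR adjusted p = 0.014, higher in 2 of 2 mice), a fitted value that depends on a sum of 0 counts in 1 mouse. This call held with DESeq2 (adjusted p = 0.0487) and was lost without the mouse block (0.748), with a shared spread (0.938), without the larger plate (0.419) and without the Des-high cells (0.317). Kcnma1 was lower in pericyte-like than in visceral smooth muscle-like cells by a log2 fold change of -6.84 (SE 0.90, edgeR adjusted p = 0.0179, lower in 3 of 3 mice). That call was lost with a shared spread (0.313), without mouse 20GG79:6 (0.111) and among cells with at least 150000 gene counts (0.0788), and it held without 20GG79:1 (0.0132) or 20GG95:3 (0.0338). In both comparisons Kcnma1 had entered the test through its visceral level. At its pericyte-like level it would not have met the count filter, so that a call in the other direction was not open to it there.

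Within the visceral class Kcnma1 stood at 316.4, 284.6 and 308.3 CPM in Des-high cells and at 94.03, 104.2 and 143.4 CPM in the others. The ranges did not overlap, but the difference did not pass after adjustment (log2 fold change 1.69, SE 0.56, p = 0.00693 and adjusted p = 0.383 by edgeR, higher in 3 of 3 mice). Of the exonic bases of Kcnma1, 5.98% overlap the antisense gene 4930519K11Rik, and since Smart-Seq2 does not mark the strand, reads from these bases cannot be told apart.

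Kcnmb1, the smooth muscle β subunit, was present in pericyte-like cells as well as in both muscle classes. Visceral smooth muscle-like cells had 340.9, 199.4 and 326.3 CPM (mean 288.8 ± 77.8, SD, n = 3), vascular smooth muscle-like cells 175.6 and 209.8 (192.7 ± 24.2, SD, n = 2) and pericyte-like cells 102.3, 121.2 and 60.7 (94.7 ± 30.96, SD, n = 3). The visceral and vascular ranges overlapped, and neither overlapped that of pericyte-like cells. No difference among these 3 classes passed, with log2 fold changes of 0.73 between visceral and vascular cells (edgeR adjusted p = 0.695), -1.48 between pericyte-like and vascular cells (0.759) and -1.67 between pericyte-like and visceral cells (0.129), the last of which passed with DESeq2 (0.0424) and without a filter on low counts (0.0488). Against visceral cells, fibroblast-like cells were lower (log2 fold change -3.04, SE 0.33, edgeR adjusted p = 0.0196, lower in 2 of 2 mice, means 32.2 and 270.1 CPM). That call was lost without the mouse block (0.0512) and with a shared spread (0.999). The fibroblast-like cells carried a summed level of the visceral markers of at most 1449 CPM, against 11328 to 12818 in the visceral class, and their part in the remaining Kcnmb1 was not tested. Kcnmb4, the neuronal β subunit, had at most 2.13 CPM as a class mean and reached 50 CPM in 3 cells. Overlaps with 2 antisense genes, Kcnmb4os1 (10.68% of its exonic bases) and Kcnmb4os2 (20.85%), leave even these counts uncertain.

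Per kilobase of exonic sequence, which allows genes to be compared, the mean of the β subunit exceeded that of the pore in every muscle and pericyte-like class. The length is the union of all annotated exons, 16976 bases over 38 transcripts for Kcnma1 and 4191 bases over 1 transcript for Kcnmb1, so that a cell using short Kcnma1 transcripts would have more Kcnma1 per kilobase than given here. In visceral smooth muscle-like cells Kcnmb1 stood at 68.9 and Kcnma1 at 8.40 CPM per kilobase, a ratio of 8.20. By mouse the ratio was 13.2, 6.51 and 6.65 in the visceral class, 2.74, 1.18 and 2.79 in Des-high cells and 14.97, 8.31 and 10.9 in the other visceral cells. In vascular smooth muscle-like cells it was 14.1 in mouse 20GG95:3, and the other mouse had 0 Kcnma1 counts. In pericyte-like cells it ran from 173.04 to 745.3 on 2 to 25 Kcnma1 counts a mouse. The order in Des-high cells depends on the division by length, since on the CPM scale Kcnmb1 stood below Kcnma1 there in all 3 mice, at 214.1, 83.03 and 212.002 CPM. On the same scale Ano1 stood at 253.3 CPM per kilobase in Des-high, 5.92 in the other visceral, 120.5 in vascular and 141.3 in pericyte-like cells. Pericyte-like cells thus combined high Ano1 with the lowest mean Kcnma1 of these classes. In mouse 20GG79:1, however, vascular cells had 0 Kcnma1 counts and pericyte-like cells 2.39 CPM. The Kcnma1 difference between pericyte-like and vascular cells did not pass (log2 fold change -2.71, SE 5.71).

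In single visceral cells Kcnma1 was expressed in a larger share of the Ano1-expressing cells than of the others, as a description over cells of 3 mice. Of the Ano1-expressing visceral cells, 54.1% (60 cells) expressed Kcnma1, against 25.7% of those without Ano1, and 35.9% of the Kcnma1-expressing cells expressed Ano1. The share was higher in each mouse: 58.3 against 24.3%, 52.4 against 15.7% and 53.8 against 29.03%. Summed over such cells, Kcnma1 stood at 241.6 against 94.4, 247.2 against 87.3 and 315.5 against 153.8 CPM. Kcnmb1 went the other way, at 40.5% of the Ano1-expressing cells against 55.3% of the others, and at 297.3 against 344.2, 73.8 against 237.1 and 200.9 against 374.7 CPM in the 3 mice. The Ano1-expressing cells also had more Des, at 1050.02 against 354.3, 1900 against 420 and 2809 against 992.7 CPM.

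The shares differed less evenly within the visceral subgroups. Among Des-high cells 56 of 92 Ano1-expressing cells (60.9%, exact 95% interval 50.1 to 70.9%) and 11 of the 24 others (45.8%) expressed Kcnma1. All 24 came from mouse 20GG95:3, in which the share was 56% of the Ano1-expressing cells. Among the other visceral cells the shares were 21.1% (4 of 19) and 24.5% of the rest, with 1 of 5 against 24.3% in mouse 20GG79:1 and 3 of 11 against 15.7% in mouse 20GG79:6, so that the direction differed between mice. Over the 99 Des-high cells of mouse 20GG95:3 the Spearman correlation of the 2 genes was 0.015, a description over cells of 1 animal that differ in depth. Kcnmb1 was expressed in 39.1% of the Ano1-expressing Des-high cells and 45.8% of the rest. Among the other visceral cells it was 47.4 and 55.9%, with 60 against 59.5% in mouse 20GG79:1 and 36.4 against 54.9% in mouse 20GG79:6. In vascular smooth muscle-like cells, Kcnma1 was expressed in 16.7% of cells with Ano1 and 16% of cells without it, and Kcnmb1 in 48.6 and 44%. In pericyte-like cells 0 of 100 Ano1-expressing cells expressed Kcnma1 (upper bound of the interval 3.62%), and 19.0% expressed Kcnmb1, against 7.84% of the others.

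**Figure D3:**
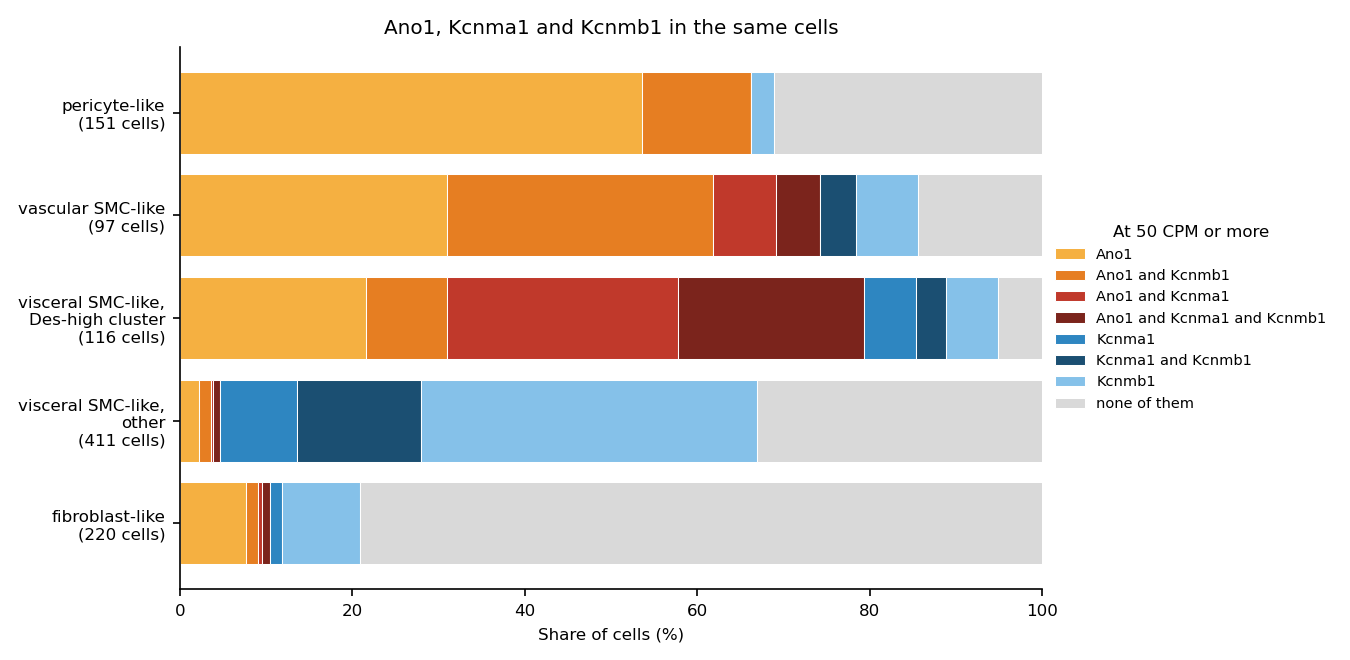
Share of cells, in percent, with each combination of Ano1, Kcnma1 and Kcnmb1 at 50 CPM or more, as stacked bars for pericyte-like, vascular, Des-high visceral, other visceral and fibroblast-like cells. Ano1 alone was the commonest state of pericyte-like cells (53.6%), and none of the 3 genes was the commonest state of fibroblast-like cells (79.1%).

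**Figure D4:**
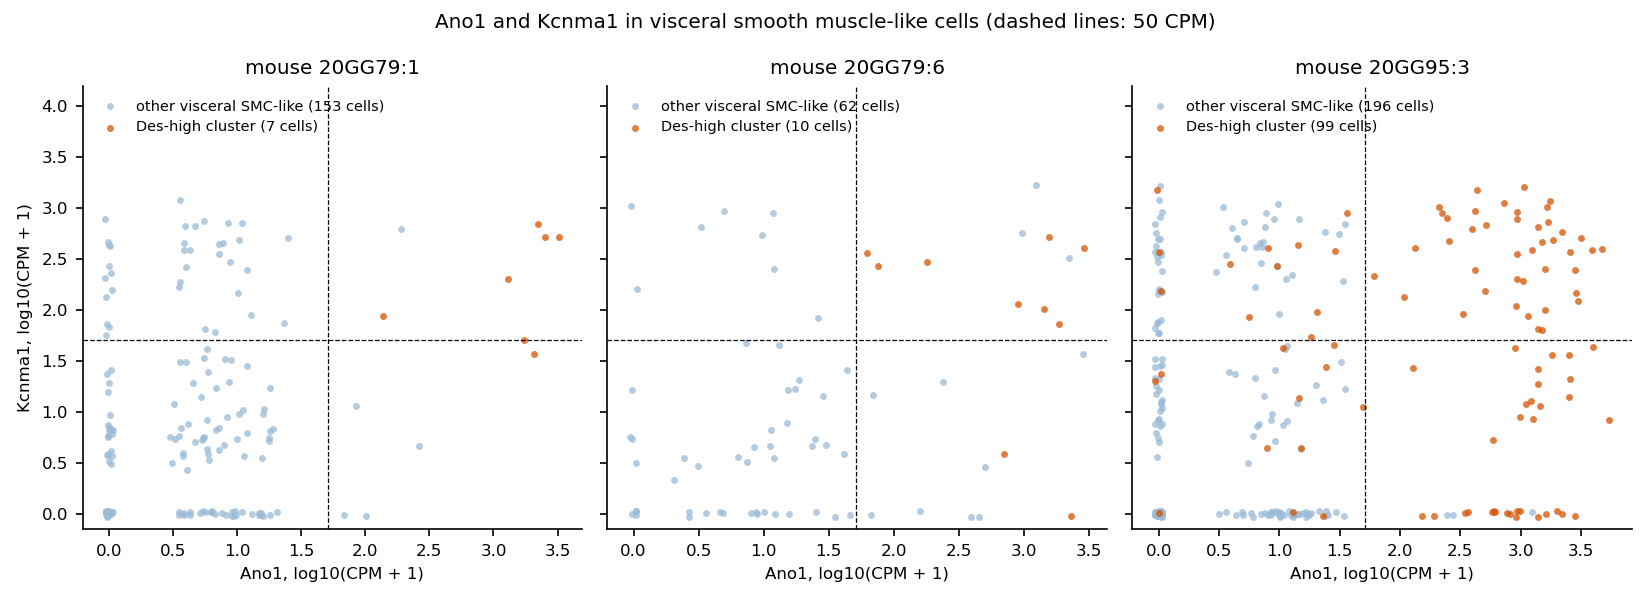
Ano1 against Kcnma1 in visceral smooth muscle-like cells, each as log10 of CPM plus 1, in 1 panel per mouse, with Des-high cells (7, 10 and 99) set apart by colour from the others. The Des-high cells lie mostly at high Ano1, and cells with at least 50 CPM of Kcnma1 occur in both groups.

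Kcnn3, the SK3 channel, was highest in lymphatic endothelium-like cells, with 318.3, 251.1, 1333, 155.95 and 1154 CPM in 5 mice and a mean of 642.6 ± 555.4 (SD, n = 5). The values of 1333 and 1154 CPM came from 9 and 5 cells. Fibroblast-like cells followed with 1.85, 10.5, 192.9 and 170 CPM in 4 mice, the 2 high values being those of mice 20GG79:1 and 20GG79:6. Blood endothelium-like cells had 3.78 to 111.3 CPM (mean 32.2 ± 41.1, SD, n = 6). The lymphatic values lay above all others except 2 of the fibroblast-like ones, and the remaining classes had means of 22.3 CPM or less. Lymphatic exceeded blood endothelium-like cells in 5 of 5 mice, at 642.6 against 16.4 CPM in the mice that gave both (log2 fold change 5.21, SE 0.78, edgeR adjusted p = 0.00191). The call held with a shared spread (0.0266) and, in the fit of these 2 classes alone, without each mouse in turn (0.000835 to 0.0272), and it was lost, under the shared spread, without the PDGFRbGFP mouse that gave lymphatic cells (0.0805), mouse 18CB39:3 (0.112) or 19CB27:3 (0.0613). At least 50 CPM was found in 50.6% of lymphatic (exact 95% interval 39.1 to 62.1%), 29.5% of fibroblast-like and 6.72% of blood endothelium-like cells. Fibroblast-like cells had more Kcnn3 than visceral smooth muscle-like cells of the same mice (log2 fold change 2.90, SE 0.39, edgeR adjusted p = 0.0303, higher in 2 of 2 mice, means 181.5 and 24.8 CPM). This call was lost without the mouse block (0.0586), with a shared spread (1) and among cells with at least 150000 gene counts (0.0617).

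Counted over the 7 genes, few differences passed, and the share of all tested genes that passed gives the background. Between visceral and vascular smooth muscle-like cells 6 of the 7 could be tested, Kit having too few counts, and Kcnma1 was higher and Ano1 lower, where 2.08% of all tested genes were higher and 1.86% lower. Between pericyte-like and vascular smooth muscle-like cells 5 were tested and 0 passed by edgeR or DESeq2, 0 also at an unadjusted p under 0.05, with 0.475% of all genes higher and 0.776% lower. In pericyte-like against visceral cells, 5 were tested and Kcnma1 alone passed, as lower, with 1.1% of all genes higher and 1.04% lower. Kcnma1 had entered that test through its visceral level. Against visceral muscle, all 7 were tested in fibroblast-like cells, Kcnn3 was higher and Kcnmb1 lower, and the background was 0.632% higher and 0.707% lower. Between lymphatic and blood endothelium-like cells only Kcnn3 had the counts to be tested, and it was higher, with 1.3% of all genes higher and 2.61% lower. It had entered the test through its lymphatic level. Between Des-high and other visceral cells 5 were tested and Ano1 was higher, with 0.218% of all genes higher and 0.135% lower. With 1 to 4 residual degrees of freedom these errors rest mainly on the spread pooled across genes.

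**Figure D5:**
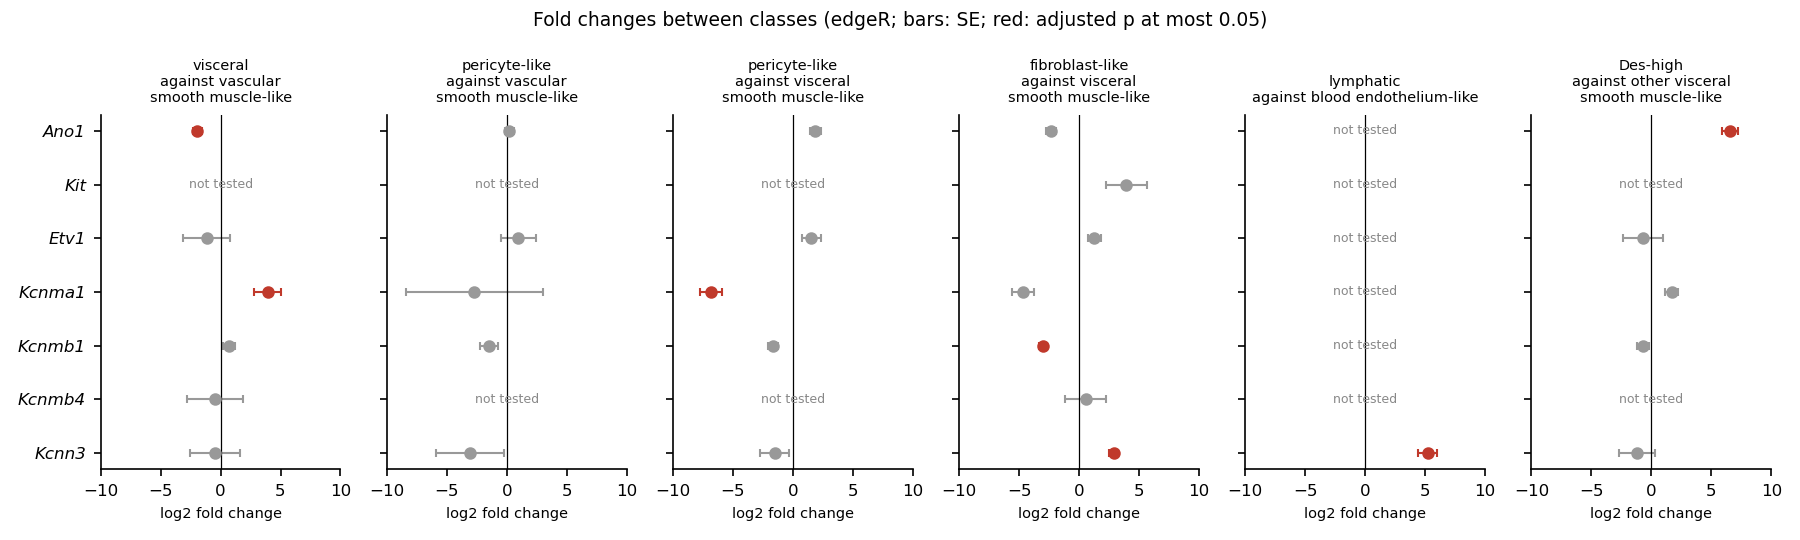
Log2 fold change of each gene, with its SE as a bar, in the 6 comparisons between classes, in red where the edgeR adjusted p was at most 0.05 and marked where a gene had too few counts to be tested. The values furthest from 0 that passed were Kcnma1 between pericyte-like and visceral smooth muscle-like cells (-6.84) and Ano1 between Des-high and other visceral cells (6.55).

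Lists of related genes were read beside the 7, and their counts stand against the shares of all tested genes just given. Of other genes of the calcium-activated family, 0 were higher and 1 was lower of 14 tested between visceral and vascular cells (2.08 and 1.86% of all genes), 3 were higher and 0 lower of 15 between pericyte-like and visceral cells (1.1 and 1.04%), and 0 passed in the other 4 comparisons. The lower gene was Kcnt1, a sodium-activated potassium channel (0.0806 against 48.2 CPM, log2 fold change -8.13), and the 3 genes higher in pericyte-like cells were Kcnt1 again (46.7 against 0.0864 CPM), its relative Kcnt2 (20.1 against 0.0937) and Lingo1 (15.1 against 0.0299). With so few counts in visceral cells, each of these genes had entered the test through the class where it was high. A call in the other direction was therefore not open to them. The median of this list was 0.97 between visceral and vascular cells, against 0.53 over all genes, and 0.07 against -0.15 between pericyte-like and visceral cells.

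Of 27 calcium release and entry genes tested between visceral and vascular cells, 1 was higher and 2 were lower, with 2.08% of all genes higher and 1.86% lower (median 0.02, all genes 0.53). Cacna1g, a T-type calcium channel, was at 0.335 against 331.5 CPM, and Atp2a3, a calcium pump of the endoplasmic reticulum, at 48.5 against 918.7. Casq2, a calcium-binding protein of the sarcoplasmic reticulum, was higher in visceral cells at 570.9 against 214.03 CPM (log2 fold change 1.93, edgeR adjusted p = 0.00113). Casq2 was also the 1 gene of the 25 tested that passed between Des-high and other visceral cells, lower at 34.3 against 758.4 CPM (log2 fold change -4.23, edgeR adjusted p = 0.000261), so that high Ano1 went with low Casq2 there. Cacna1g was lower in pericyte-like than in vascular cells (18.5 against 331.5 CPM) and higher in pericyte-like than in visceral cells (71.4 against 0.632), as 1 of 1 and 1 of 2 genes that passed among the 27 tested in each, where 0.776% of all genes were lower and 1.1% higher. Its visceral level was too low to enter the latter test by itself, so that a call in the other direction was not open to it. In fibroblast-like against visceral cells 3 of 29 passed, where 0.632% of all genes were higher and 0.707% lower: Cacna1g higher (52.8 against 0.818 CPM), and Jph2, which ties the plasma membrane to the calcium store, and the cation channel Trpc6 lower (4.75 against 87.7 and 1.55 against 106.03 CPM). In lymphatic against blood endothelium-like cells 1 of 14 passed, where 2.61% of all genes were lower: Atp2a3, at 2.27 against 87.2 CPM.

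Of 17 chloride transport and channel-gating genes, 1 was higher and 4 were lower in visceral than in vascular cells, with 2.08% of all genes higher and 1.86% lower (median -0.51, all genes 0.53). The higher one was Slc12a2, the cotransporter that loads cells with chloride, at 179.1 against 4.44 CPM (log2 fold change 5.54, edgeR adjusted p = 2.05e-05). It was likewise higher in pericyte-like than in vascular cells (200.4 against 4.44 CPM), the 1 gene of this list to pass there. The lower ones were the anion exchanger Slc4a3 (79.5 against 445.4 CPM), Mrvi1, a target of cGMP-dependent kinase at the calcium store (332.9 against 713.5), and both subunits of soluble guanylate cyclase, Gucy1a1 (511.3 against 1410) and Gucy1b1 (170.7 against 454.3). The cyclase subunits were also the 2 of 17 that were higher in pericyte-like than in visceral cells (1885 against 480.9 and 639.5 against 164.9 CPM), and they were higher in lymphatic than in blood endothelium-like cells (684.8 against 45.3 and 278.3 against 14.9 CPM), 2 of the 13 tested. None of the 17 passed in the other 2 comparisons.

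Of the Cajal cell and Kit pathway list, 11 genes were tested between visceral and vascular cells, and 1 was higher and 1 lower beside 2.08 and 1.86% of all genes. Ednrb, an endothelin receptor, was higher (140.3 against 7.51 CPM) and Spry4, an inhibitor of receptor tyrosine kinase signalling, was lower (5.22 against 96.8), and the median was -1.05 against 0.53 over all genes. The transcription factor Ets1 was the 1 of 11 higher in pericyte-like than in visceral cells (206.6 against 17.3 CPM). Edn3, an endothelin, and Dusp6, a phosphatase of ERK, were the 2 of 14 higher in fibroblast-like than in visceral cells (106.9 against 1.96 and 166.7 against 21.6 CPM). Kitl, the ligand of Kit, was the 1 of 9 that passed between the endothelial classes, at 4.66 CPM in lymphatic and 274.6 in blood endothelium-like cells (log2 fold change -5.84, edgeR adjusted p = 0.000717). None of 11 passed between pericyte-like and vascular cells or between Des-high and other visceral cells.

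Over 34 sums of cells by class and mouse, the genes whose levels were most like those of Ano1 among 11871 genes were Ptgir (Pearson r of log2 levels 0.91), Des (0.89), Pde3a (0.89), Pdgfrb (0.88) and Rgs5 (0.88). For Kcnmb1 they were Synpo2, Carmn and Artn (each 0.96), and for Kcnma1 Wscd2 (0.90), Tacr2 (0.86) and Ctxn1 (0.86). For Kcnn3 they were Ackr2 (0.80), Dtx1 (0.76) and Wipf3 (0.75), for Etv1 C1qtnf1 (0.76), C1qtnf12 (0.73) and Myof (0.73), for Kit Bspry (0.80), Brpf3 (0.79) and Camsap3 (0.78), and for Kcnmb4, which stayed below 50 CPM in every sum, Tmem200c (0.71), Matn4 (0.67) and Zfp608 (0.66). Among the 7 genes, Ano1 correlated with Kcnmb1 at 0.75, Kcnma1 at 0.53, Etv1 at 0.46, Kit at 0.08 and Kcnn3 at -0.31, and Kcnma1 with Kcnmb1 at 0.72. These values describe the sums, which share mice and plates. The visceral class entered them as 2 parts, its Des-high and its other cells. Since the Des-high part was picked by its Des level, the correlation of Ano1 with Des is not independent of that split.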

How the data were processed

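Colon cells of 11 mice were profiled by Smart-Seq2. The authors deposited raw read counts per Ensembl gene and cell, per the values of the files. Per the submitters' processing notes, bcl2fastq, Bowtie, Bowtie2, featureCounts, Subread and the mouse build GRCm38 (mm10) were used, and their versions, roles and settings, like the sort gates and any filter on cells, are not stated in the sources used. Symbols were matched to 46005 of 46517 identifiers. The 92 spike-in rows, 1.88% of all counts, stayed out of library sizes and tests. All cells passed minima of 20000 gene counts and 1000 detected genes.

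Clustering used scanpy 1.11.5 (2000 most variable of alternate genes in alphabetical order, after 103 listed genes were held out, and 84 class markers, 20 principal components, 15 neighbours, Leiden resolution 1). A cluster took a class name where at least 3 markers were detected. Keeping 54 cells unnamed was decided after the data had been seen. They scored highest for the visceral smooth muscle markers. However, they shared the leading gene Vtn with both pericyte-like clusters and had no visceral marker among their leading genes. Counts were summed per class and mouse and tested with edgeR 4.0.16 in R 4.3.3 (TMM, filterByExpr, robust quasi-likelihood fit, mouse as a block, since both classes come from the same animal), with Benjamini-Hochberg adjustment over tested genes not used for clustering and a threshold of 0.05. SE is the fold change divided by the root of F. The fit was tested on simulated counts with a common spread, no difference between mice and changes in well-counted genes only. That says nothing of how it treats genes with few counts. p-values set a difference against the spread between mice, which with so few residual degrees of freedom rests mainly on the spread pooled across genes. Alternatives included DESeq2 1.42.0, no filter, no block, a spread shared over all classes, and mice, plates or cells left out. The named genes were all 7 members, up to 4 passing genes per list and direction, and the 5 (Ano1) or 3 (others) most alike; a few results of this rule are not reported here. The members and lists were chosen with earlier results of these data known.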

Additional observations from a re-analysis of the deposited data

Results flagged for a closer look

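In groups of 4 to 6 mice, 1 mouse lay far from the others in 7 of 28 gene and class groups, where chance flags about 1 in 20. In blood endothelium-like cells mouse 20GG79:6 had 17.5 CPM of Kit, the nearest mouse having 4.22, and 1 of its 32 cells reached 490 CPM. The same mouse had 3.75 CPM of Kcnma1 there, the nearest having 0.314. Mouse 19CB4:5 had 111.3 CPM of Kcnn3 in blood endothelium-like cells, the nearest having 41.5. In epithelium-like cells the PDGFRbGFP mouse with the most cells had 21.5 CPM of Kcnma1, the nearest having 2.49, and mouse 20GG79:6 had 1.66 CPM of Kcnmb4, from 2 counts, the nearest having 0. In fibroblast-like cells mouse 20GG79:1 had 12.4 CPM of Kcnma1, the nearest having 1.74. In lymphatic endothelium-like cells mouse 18CB39:3 had 1.63 CPM of Kcnmb4, from 2 counts, the nearest having 0.206.

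The 54 unnamed cells of mouse 20GG95:3, 85.2% of them on its larger plate, enter none of the comparisons. They had 257.4 CPM of Ano1, 345.8 of Kcnmb1, 30.9 of Kcnn3, 21.1 of Etv1, 8.51 of Kcnma1 and 1.08 of Kit, each above the 0.405 CPM that 3 counts would give. They expressed Ano1 in 29.6% of cells, and 15 of these 16 cells had no Kit count.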

How the results depend on the processing

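The number of the 7 genes that passed depended on the test. Between visceral and vascular cells it was 2, and 1 with DESeq2, 1 without the Des-high cells and 0 without the larger plate. Between pericyte-like and visceral cells it was 1, and 3 with DESeq2, 3 without a filter, 2 without the Des-high cells and 0 among cells with at least 150000 gene counts. Between fibroblast-like and visceral cells it was 2, and 4 with DESeq2, 4 without a filter and 1 among the deeper cells. With a spread shared over all classes it was 0 in each of these 3 comparisons and between Des-high and other visceral cells. Leaving out 1 mouse was run under that shared spread, which alone gives 0 in these comparisons, so that its 0 to 0 for visceral and vascular and for fibroblast-like cells says nothing of single mice. For the 3 comparisons with 3 or more mice it was also run in the fit of the 2 classes alone, chosen after seeing the data, where the number was 1 without each mouse in turn for the endothelial and Des-high comparisons and 0 to 1 for pericyte-like and visceral cells, the 0 being without 20GG79:6. Over both fits it was 0 to 1 in these 3. Without the replicate block the numbers were 0 (visceral and vascular), 0 (pericyte-like and vascular, 0 also with it), 1 (pericyte-like and visceral), 0 (fibroblast-like and visceral), 1 (endothelial) and 0 (Des-high), and the cause of the lost calls was not tested. The share of Ano1-expressing visceral cells without Kit counts, 97.3%, ran from 90.9 to 100% when 1 mouse was left out.

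Of all genes tested, the percentage called and its range over alternatives was 3.93 (0.228 to 5.42), 1.25 (0.0158 to 4.21), 2.14 (0.127 to 12.2), 1.34 (0 to 7.42), 3.91 (1.23 to 16.9) and 0.353 (0 to 4.26) in that order, and without 1 mouse under the shared spread at most 0.0353 except for the endothelial classes (3.78 to 5.68). Of the fold changes of the 7 genes under the alternatives, 84.2% kept direction and side of the threshold, 34 values lost the call, 10 gained one and 19 turned sign, and none of these 19 was a call. Between visceral and vascular cells Kcnmb4 turned to 2.39 without 20GG79:1, and Kcnn3 to 0.58 without 20GG95:3 and 0.91 without the larger plate. Between pericyte-like and vascular cells Ano1 turned to -0.11 without 20GG79:1, -0.18 without the smaller plate and -0.0191 at Leiden resolution 0.5, and Kcnma1 to 7.68 and Kcnn3 to 0.19 without 20GG95:3. Between pericyte-like and visceral cells Etv1 turned to -0.33 among deeper cells and Kcnn3 to 0.0914 at resolution 0.5. Between fibroblast-like and visceral cells Ano1 turned to 0.19 without the Des-high cells, and Kcnmb4 to -0.79 with a shared spread, -1.54 without 20GG79:1 and -0.23 without 20GG79:6. Between Des-high and other visceral cells Etv1 turned to 0.40 without the block, 0.63 (shared spread) and 0.45 without 20GG79:6 and 0.31 among deeper cells, where Kcnn3 turned to 0.46. Leaving out mixed or shallow cells gave no value for the vascular class, which then had too few mice, and leaving out the Des-high cells and naming the unnamed cluster visceral were chosen after seeing the data.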
